A study of Mus musculus with 15 samples.

Results

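The genes described here are 10 that act in the uptake, carriage and remodelling of docosahexaenoic acid (DHA) and other long fatty acids: Mfsd2a, Adipor1, Fabp5, Fabp7, Lpcat1, Lpcat2, Lpcat3, Lpcat4, Agpat3 and Pla2g6. They were taken by name, with earlier results of these data known, and their Ensembl identifiers were found in all 15 count files. They are 10 of 55421 genes listed, and all 10 were among the 18979 genes that passed the filters and were tested.

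RNA was sequenced from the posterior eyecup, the back of the eye after removal of the neural retina, which holds the retinal pigment epithelium (RPE), the choroid and the sclera. Mice were 2.5 months old, of both sexes and on a C57BL/6J background, and the labels do not give the sex of single mice. The paper's supplement gives the number of each sex per genotype, and the share of males differed between genotypes. There were 4 wild-type (WT) mice, 6 mice with a single mutant copy of Tmem135 (FUN025/+) and 5 mice with both copies mutant (FUN025/FUN025), and each library stands for 1 mouse. The FUN025 mutation is inherited and is not limited to a cell type, so each mutant eyecup carried it in every tissue it held. The comparisons ask how the number of mutant Tmem135 copies relates to the levels of these genes.

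DHA is an omega-3 fatty acid that photoreceptor outer segments hold in their membrane phospholipids. It reaches the retina across the RPE and the blood vessels, is carried in cells by fatty acid binding proteins, and enters phospholipids when an acyltransferase adds it to a lysophospholipid, a phospholipid that lacks a fatty acid. Phospholipases remove fatty acids again, and the repeated exchange is called remodelling.

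The libraries of WT mice held 18094977 to 20029919 counts, those of FUN025/+ mice 10903183 to 13456349 and those of FUN025/FUN025 mice 11053535 to 15038383, so every WT library was deeper than every mutant library. Depth and any batch that held the WT mice alone cannot be told apart from genotype. Levels are in CPM (counts per 1000000, after TMM scaling of the library totals), and 3 counts corresponded to 0.15 to 0.282 CPM, a limit that covers counting error only. Tmem135, the mutated gene, was at 65.9, 63.7, 66.1 and 59.7 CPM in WT mice, at 66.0 to 86.1 CPM with a median of 74.2 in FUN025/+ mice, and at 84.9, 89.2, 93.8, 82.4 and 90.7 CPM in FUN025/FUN025 mice. Gene counts do not separate the mutant from the WT transcript. All 10 markers of the RPE were detected in every library. Their summed levels were 17430 to 20980 CPM in WT, 17280 to 22660 CPM in FUN025/+ and 17040 to 21520 CPM in FUN025/FUN025 eyecups. The largest parts of the sum were Rgr and Ttr, at 6775 and 6009 of 20480 CPM in WT replicate 1. Against WT, 7 of the 10 had a positive log2 fold change in FUN025/+ (median 0.0731) and 3 in FUN025/FUN025 (median -0.109). Between FUN025/FUN025 and FUN025/+ it was 1 of the 10 (median -0.171). None of the 10 had an adjusted p under 0.05 in any comparison (edgeR).

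In FUN025/FUN025 eyecups, 3 of the 10 genes differed from WT. Lpcat3, an acyltransferase that places polyunsaturated fatty acids in phospholipids, and Mfsd2a, a transporter of lysophospholipids that carry DHA, rose to 1.59 and 1.65 times their WT levels. Lpcat1, an acyltransferase known for saturated fatty acids, fell to 0.790 of its WT level. A gene is called here when its adjusted p is under 0.05 by the quasi-likelihood test of edgeR, adjusted over the 18979 genes. The background is that 14.0% of all genes tested were called in this comparison, 7.03% higher and 7.00% lower. No member was called between FUN025/+ and WT, where 13.7% of all genes were. Between FUN025/FUN025 and FUN025/+ eyecups, 2 members were called, Lpcat3 and Mfsd2a, both higher, where 0.522% of all genes were called and 0.327% were called higher. RNA came from whole tissue, so fewer cells of a type and less RNA per cell cannot be told apart.

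**Figure D1:**
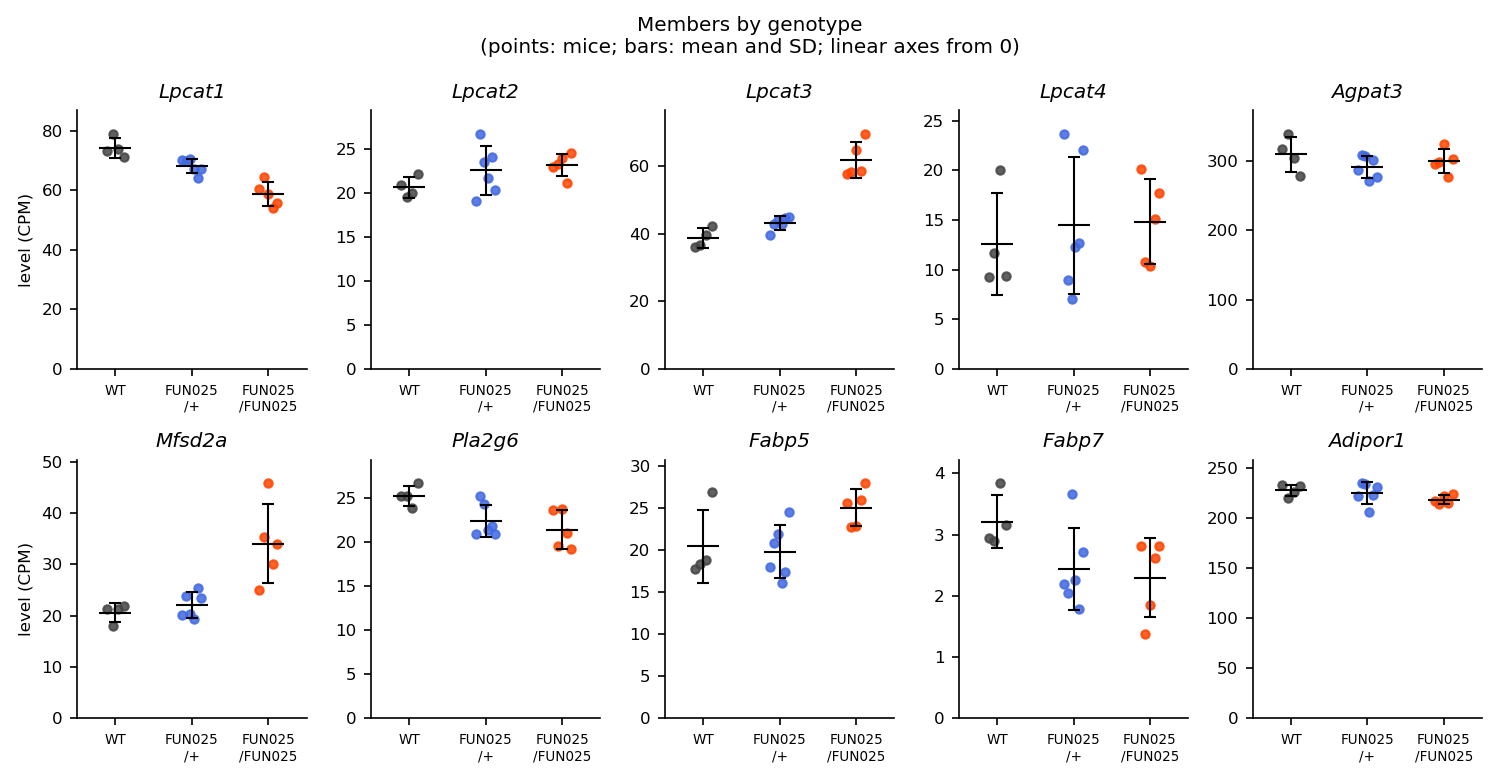
Level of each of the 10 genes in CPM (vertical axes, linear and starting at 0) in WT, FUN025/+ and FUN025/FUN025 mice, with 1 point per mouse and the mean and SD as bars. The 5 FUN025/FUN025 points of Lpcat3, from 57.6 to 69.6 CPM, lie above all other points, and those of Lpcat1 lie below all WT points.

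The upstream sequences of the 3 called genes are shown so that the called genes can be compared at their starts. The sequences and gene starts are from RefSeq on GRCm38.p6, which held a window from 250 bases before to 50 bases after the start for 9 of the 10 genes. Only bases before the start and outside every annotated exon are printed, 5′ to 3′ on the strand of the gene, with matches to the motifs searched in capitals. Lpcat3 is shown at chr6:124662854-124663026 on the plus strand, Mfsd2a at chr4:122961189-122961308 on the minus strand and Lpcat1 at chr13:73466981-73467196 on the plus strand.
Lpcat3: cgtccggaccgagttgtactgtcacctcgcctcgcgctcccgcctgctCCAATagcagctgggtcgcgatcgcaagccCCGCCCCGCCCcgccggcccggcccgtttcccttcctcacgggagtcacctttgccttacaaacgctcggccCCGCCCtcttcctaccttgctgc
Mfsd2a: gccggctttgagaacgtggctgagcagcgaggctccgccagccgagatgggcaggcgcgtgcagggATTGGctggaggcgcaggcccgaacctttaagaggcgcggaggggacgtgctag
Lpcat1: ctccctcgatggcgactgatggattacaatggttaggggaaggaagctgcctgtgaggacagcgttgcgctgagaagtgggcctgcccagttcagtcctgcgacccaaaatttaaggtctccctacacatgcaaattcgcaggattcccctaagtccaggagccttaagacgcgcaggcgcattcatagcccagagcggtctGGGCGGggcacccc

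Motifs were searched on both strands in the whole windows. CCAAT, the CCAAT box, was found 4 times in the window of Lpcat3 and 1 time in that of Mfsd2a, against 37.4% of 32851 mouse windows with a match. GGGCGG, the GC box, matched 6 times at Lpcat3, at places that overlap in part, and 3 times at Lpcat1, and 35.7% of all windows held it. AGGTCA, the half-site of nuclear receptors, matched 1 time at Mfsd2a, in a part of the window that is not printed, and was found in 16.3% of windows. TCACNCCAC, the sterol regulatory element, and CACGTG, the E-box, had no match in the windows of the 9 genes, and were found in 1.24% and 7.15% of all windows. Members that were not called held matches too. Of the 9 genes with a window, 6 held CCAAT (also Lpcat2, Pla2g6, Fabp7 and Adipor1). GGGCGG was held by 6 (also Lpcat2, Lpcat4, Pla2g6 and Adipor1) and AGGTCA by 2 (also Fabp7). Adipor1 had 2 windows, and it was counted where at least 1 held a match. A match is a description of the letters in the window.

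Mfsd2a, which imports lysophosphatidylcholine with DHA into the brain's vessels and the RPE, lies on chromosome 4 from 122946850 to 122961188 of GRCm38, on the minus strand. Its level was 21.3, 17.9, 21.3 and 21.8 CPM in the 4 WT mice. In FUN025/+ mice it was 19.3 CPM at the lowest, 21.8 CPM at the median and 25.4 CPM at the highest. In FUN025/FUN025 mice it was 25.0, 35.4, 45.8, 30.1 and 34.0 CPM. All FUN025/FUN025 mice were above all WT mice, and the lowest of them lay within the range of FUN025/+ mice. The spread also differed, with a coefficient of variation of 22.6% in FUN025/FUN025 mice and 8.78% in WT mice. The difference from WT was 0.72 ± 0.136 (log2 fold change ± SE, n = 5 and 4; adjusted p = 0.00214) and that from FUN025/+ was 0.63 ± 0.123 (n = 5 and 6; adjusted p = 0.0242) in edgeR's test. The call against FUN025/+ was lost in 9 of the 28 alternative settings, with adjusted p-values up to 0.165, among them the fits without FUN025/+ replicate 1 or 3 or FUN025/FUN025 replicate 2 or 5. Between FUN025/+ and WT the log2 fold change was 0.10 with a 95% interval from -0.182 to 0.376. Mfsd2a is known from endothelium. Of the 9 endothelial markers, 6 fell in FUN025/FUN025 against WT, and the sum of all 9 was 1248 to 1464 CPM in WT, 999.2 to 1363 CPM in FUN025/+ and 923.7 to 1134 CPM in FUN025/FUN025 eyecups, with no marker at 0 in any library. With the mean endothelial marker level as a covariate, chosen after seeing the data, the log2 fold change of Mfsd2a against WT was 0.74 (adjusted p = 0.0714).

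Adipor1, a receptor whose loss is known to lower retinal DHA, was the most abundant of the 10 genes per length of exon. Its level ranged from 220.8 to 233 CPM in WT, from 206.2 to 235.2 CPM in FUN025/+ and from 213.9 to 224.2 CPM in FUN025/FUN025 eyecups, and the 3 ranges overlapped. The log2 fold change of FUN025/FUN025 against WT was -0.06, with a 95% interval from -0.154 to 0.0318. This interval is among the narrowest of the 10 genes.

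Fabp5 and Fabp7, binding proteins that carry fatty acids inside cells, were not called in any comparison. Fabp5 was at 17.8, 18.3, 18.9 and 27.0 CPM in WT mice, from 16.1 to 24.5 CPM with a median of 19.4 in FUN025/+ mice, and at 25.6, 22.8, 22.9, 25.9 and 28.0 CPM in FUN025/FUN025 mice. A single WT mouse lay among the FUN025/FUN025 values, and the other 3 WT mice lay below them. The log2 fold change against WT was 0.29 ± 0.131 (adjusted p = 0.153, edgeR), and without that WT mouse it was 0.45 (adjusted p = 0.0219). It was 0.08 with the rod marker covariate (adjusted p = 0.700) and 0.04 with the rod and muscle marker covariates (adjusted p = 0.946). Against FUN025/+ it was 0.34 ± 0.120 (adjusted p = 0.508). Of the 31-base stretches of Fabp5, 9.27% also occur in other genes, mostly gene models similar to Fabp5, and the count of reads between them is uncertain.

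Fabp7, known from glia, was the least abundant of the 10 genes, with 18 to 77 counts per library in FUN025/FUN025 and WT mice. Its level was 2.94, 2.90, 3.84 and 3.16 CPM in WT mice, 1.78 to 3.66 CPM with a median of 2.23 in FUN025/+ mice, and 2.82, 1.38, 1.84, 2.63 and 2.81 CPM in FUN025/FUN025 mice. Every FUN025/FUN025 mouse was below every WT mouse. The log2 fold change of -0.48 had a 95% interval from -0.955 to -0.0142, but an adjusted p of 0.162 in edgeR's test. With the rod marker covariate it was -0.7 (adjusted p = 0.0789) and with the rod and muscle marker covariates -1.3 (0.075). With the endothelial covariate, chosen after seeing the data, it was -0.502 (0.449). No alternative called it. The 8 markers of Muller glia and astrocytes, of which none was called, summed to 2693 to 2789 CPM in WT and 2503 to 2861 CPM in FUN025/FUN025 eyecups. Most of this sum was Glul (mean 1879 CPM in WT), and the median log2 fold change of the 8 was -0.08. Of 7 Schwann and myelinating cell markers, 2 fell in the same comparison, with sums of 595.6 to 665.1 CPM in WT and 524 to 744.8 CPM in FUN025/FUN025 eyecups. Their part in the values of Fabp7 was not tested.

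Lpcat3 lies on chromosome 6 from 124663027 to 124704418 of GRCm38, on the plus strand. Its level was 36.2, 36.7, 39.6 and 42.4 CPM in WT mice. It was 39.7 CPM at the lowest, 43.5 CPM at the median and 45.1 CPM at the highest in FUN025/+ mice. It was 57.6, 58.3, 64.9, 58.7 and 69.6 CPM in FUN025/FUN025 mice, all above every mouse of the other genotypes. The difference from WT was 0.67 ± 0.065 (log2 fold change ± SE; adjusted p = 1.59e-06) and that from FUN025/+ was 0.52 ± 0.0585 (adjusted p = 6.28e-05) in edgeR's test. Both calls were made in all 28 alternative settings, with log2 fold changes of 0.59 to 0.72 and 0.47 to 0.54. In FUN025/+ mice the log2 fold change against WT was 0.16 ± 0.0628 (adjusted p = 0.103), which is 23.4% of the difference seen in FUN025/FUN025 mice. Exons of Lpcat3 and of Emg1 on the other strand share 334 bases, and the libraries do not mark strand, so reads there cannot be assigned to either gene. Emg1 had a log2 fold change of -0.13 between FUN025/FUN025 and WT eyecups (adjusted p = 0.140), opposite in sign to that of Lpcat3. It was also opposite in FUN025/+ against WT, at -0.17 (adjusted p = 0.0494, edgeR). In FUN025/FUN025 against FUN025/+ it was 0.039, the same sign as that of Lpcat3, and was not called.

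Lpcat1 lies on chromosome 13 from 73467197 to 73516422 of GRCm38, on the plus strand, and is known for making dipalmitoyl phospholipids and for its loss in a retinal degeneration mouse. Its level was 73.0, 78.9, 73.9 and 71.2 CPM in WT mice. It was 64.2 CPM at the lowest, 68.5 CPM at the median and 70.6 CPM at the highest in FUN025/+ mice. It was 60.4, 64.3, 58.8, 54.1 and 55.5 CPM in FUN025/FUN025 mice. Both mutant genotypes were below all WT mice, and 1 FUN025/FUN025 mouse lay within the FUN025/+ range. The difference between FUN025/FUN025 and WT was -0.34 ± 0.053 (log2 fold change ± SE; adjusted p = 0.00032, edgeR). Against FUN025/+ it was -0.22 ± 0.0486 (adjusted p = 0.0548), called in 5 of the 28 alternatives with adjusted p-values down to 0.00934, and FUN025/+ against WT was -0.12 ± 0.0508 (adjusted p = 0.114). With the endothelial marker covariate, chosen after seeing the data, the difference from WT was -0.26 (adjusted p = 0.0646). The 12 rod markers, of which none was at 0 in any library and 1 was called lower, summed to 360.6 to 2581 CPM in WT and 189.3 to 522.6 CPM in FUN025/FUN025 eyecups. With the mean rod marker level as a covariate the differences from WT were -0.28 for Lpcat1 (adjusted p = 0.00344), 0.59 for Lpcat3 (adjusted p = 1.74e-05) and 0.69 for Mfsd2a (adjusted p = 0.0112). The 10 striated muscle markers, of which 3 fell in FUN025/FUN025 against WT with none at 0 in any library, summed to 3950 to 7366 CPM in WT and 3291 to 4134 CPM in FUN025/FUN025 eyecups. With rod and muscle markers both as covariates the differences from WT were -0.36 for Lpcat1 (adjusted p = 0.0363), 0.66 for Lpcat3 (adjusted p = 0.00191) and 1.09 for Mfsd2a (adjusted p = 0.00804).

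Per kilobase of exon, Lpcat1 was the higher of the pair in WT mice, at a mean of 16.0 CPM per kb against 11.85 CPM per kb for Lpcat3. In FUN025/FUN025 mice Lpcat3 was the higher, at 18.9 CPM per kb against 12.65 CPM per kb for Lpcat1. The ratio of Lpcat3 to Lpcat1 per kilobase was 0.703, 0.660, 0.759 and 0.845 in WT mice, 0.802 to 0.986 with a median of 0.895 in FUN025/+ mice, and 1.35, 1.28, 1.56, 1.54 and 1.78 in FUN025/FUN025 mice. With these exon lengths, the ratio was above 1 in all FUN025/FUN025 mice and below 1 in all other mice. The 3268 exon bases of Lpcat3 include the 334 shared with Emg1, where reads cannot be assigned. Ratios near 1, as in FUN025/+ mice, could fall on the other side with another length. The order of the mice by this ratio does not depend on the lengths. Exon length counts every annotated isoform, so a level per kilobase is a lower estimate where a short isoform prevails.

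**Figure D2:**
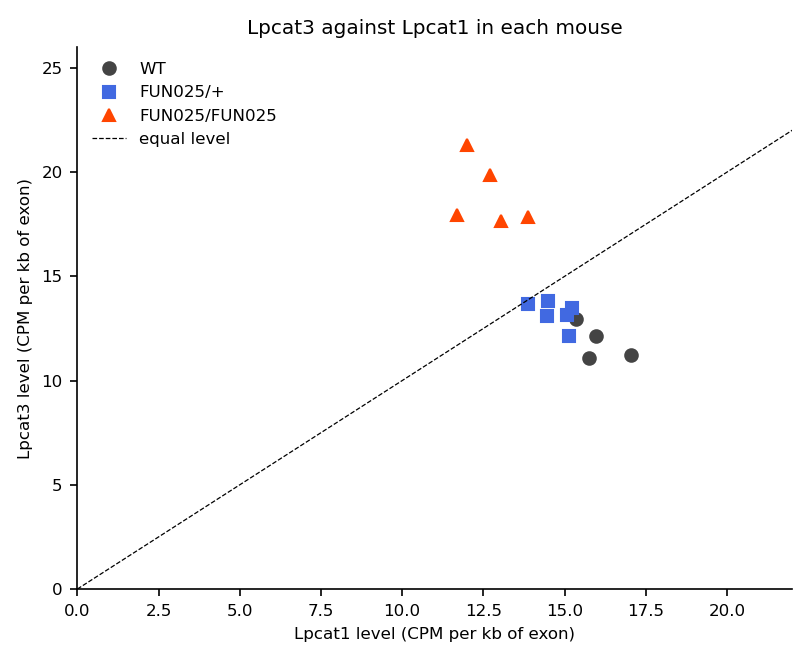
Level of Lpcat3 against level of Lpcat1 in each mouse, both in CPM per kb of exon on linear axes, with 1 point per mouse, the genotype as colour and shape, and a dashed line where the levels are equal. The 5 FUN025/FUN025 mice lie above the line with ratios of 1.28 to 1.78, and the other 10 lie below it. Where the points lie against the line depends on the exon lengths used.

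Lpcat2, an acyltransferase known from macrophages for making platelet-activating factor, was not called. It was at 20.9, 19.6, 20.0 and 22.2 CPM in WT mice, 19.1 to 26.8 CPM with a median of 22.7 in FUN025/+ mice, and 23.0, 23.4, 24.0, 21.2 and 24.6 CPM in FUN025/FUN025 mice. Of the FUN025/FUN025 mice, 4 lay above every WT mouse and 1 lay among them. The log2 fold change against WT was 0.17 with a 95% interval from -0.0147 to 0.347 (adjusted p = 0.214, edgeR). The 9 macrophage and microglia markers summed to 472 to 595.8 CPM in WT, 468.3 to 668.5 CPM in FUN025/+ and 542.3 to 618.1 CPM in FUN025/FUN025 eyecups, and 2 of them, Cd68 and Trem2, rose in FUN025/FUN025 against WT. Its exons share 287 bases with the antisense gene Gm45472.

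Lpcat4, an acyltransferase of phosphatidylethanolamine and phosphatidylcholine, varied most between mice. It was at 9.22, 11.7, 20.1 and 9.33 CPM in WT mice, 7.02 to 23.7 CPM with a median of 12.5 in FUN025/+ mice, and 20.1, 10.8, 10.4, 15.1 and 17.8 CPM in FUN025/FUN025 mice. High mice occurred in every genotype, and the log2 fold change of 0.24 against WT had a 95% interval from -0.568 to 1.04, so a difference within it was not detectable with these mice.

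Agpat3, an acyltransferase that makes phosphatidic acid and is known to favour DHA, was the second most abundant gene per length. Its level was 277.7 to 338.6 CPM in WT, 270.4 to 307.5 CPM in FUN025/+ and 276 to 324.5 CPM in FUN025/FUN025 eyecups, and the ranges overlapped. The log2 fold change of FUN025/FUN025 against WT was -0.05, with a 95% interval from -0.176 to 0.0814.

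Pla2g6, a calcium-independent phospholipase that removes fatty acids from phospholipids, was not called. Its level was 25.3, 25.2, 23.9 and 26.7 CPM in WT mice, 20.9 to 25.2 CPM with a median of 21.6 in FUN025/+ mice, and 23.6, 19.5, 23.7, 21.1 and 19.2 CPM in FUN025/FUN025 mice. Every FUN025/FUN025 mouse was below every WT mouse, and FUN025/+ mice overlapped WT mice. The log2 fold change of FUN025/FUN025 against WT was -0.24 ± 0.0799 (adjusted p = 0.0558, edgeR). Of the 28 alternatives, 4 called it, with adjusted p-values from 0.0363 to 0.801 over all of them. The lowest came with the level of Xist, an RNA of female cells, as a covariate, where the log2 fold change was -0.243. With the endothelial marker covariate, chosen after seeing the data, the log2 fold change was -0.065 (adjusted p = 0.801).

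**Figure D3:**
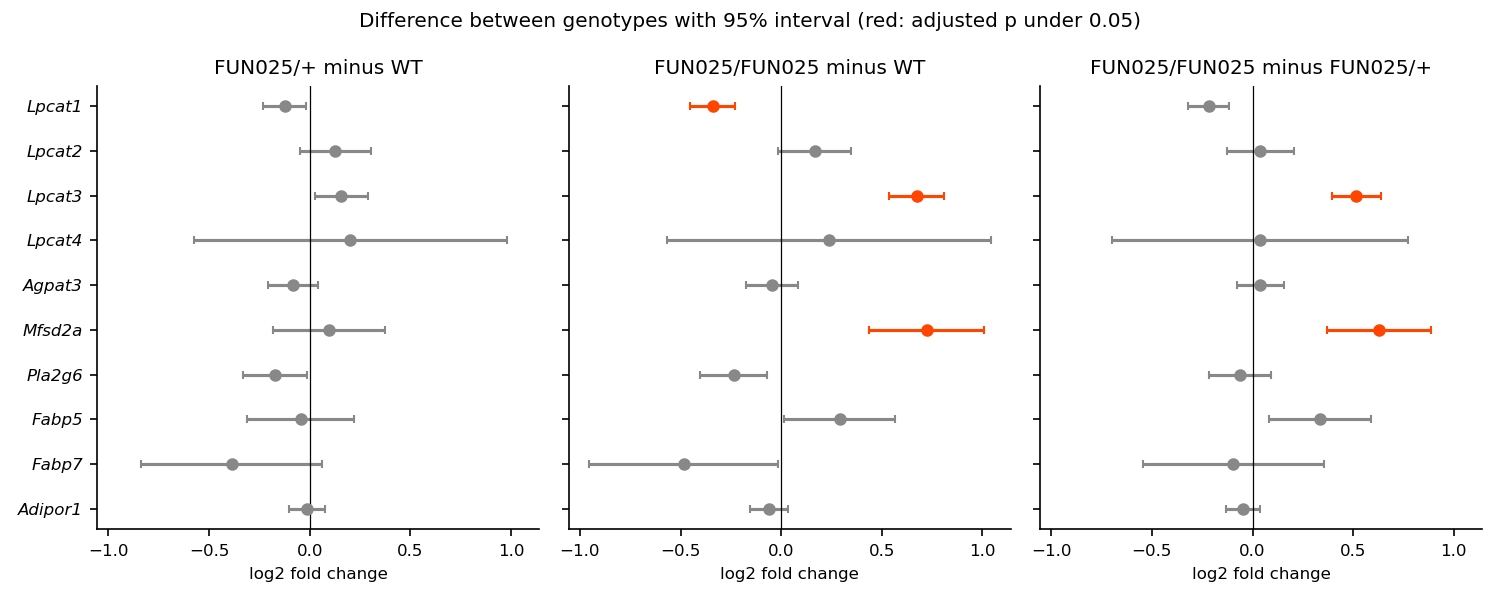
Log2 fold change of each of the 10 genes (horizontal axis) with its 95% interval, unadjusted for the number of genes, in the 3 comparisons between genotypes, with red points for adjusted p under 0.05. Lpcat3 and Mfsd2a are at 0.67 and 0.72 in FUN025/FUN025 against WT, Lpcat1 is at -0.34, and no point is red in FUN025/+ against WT.

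Of the 10 genes, 5 had values in FUN025/FUN025 mice that did not overlap those of WT mice, namely Lpcat1, Lpcat3, Mfsd2a, Pla2g6 and Fabp7, against 14.8% of all genes tested. In FUN025/+ against WT it was 1 gene, Lpcat1 (10.9% of all genes), and in FUN025/FUN025 against FUN025/+ it was 1 gene, Lpcat3 (1.13%). In FUN025/+ against WT, 3 members had an unadjusted p under 0.05, namely Lpcat1, Lpcat3 and Pla2g6, where 28.8% of all genes did, and neither DESeq2 nor limma-voom called a member. The comparisons against WT share the same 4 WT mice. The median log2 fold change of the 10 genes was 0.06 in FUN025/FUN025 against WT, -0.03 in FUN025/+ against WT and 0.04 in FUN025/FUN025 against FUN025/+, and the medians over all genes tested lay between -0.01 and -0.00244.

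Against the number of mutant copies, from 0 to 2, a linear trend across the 15 mice was called for 3 members at an adjusted p under 0.01 in limma, where 2.14% of all genes were. The slope per copy was 0.34 for Lpcat3 (adjusted p = 9.7e-05), 0.36 for Mfsd2a (adjusted p = 0.0095) and -0.17 for Lpcat1 (adjusted p = 0.00136), all on the log2 scale. The trend of Mfsd2a was called in 8 of 22 alternatives and was lost in 12 of the 15 fits that left out a mouse, while those of Lpcat1 and Lpcat3 were called in all 22. The step from WT to FUN025/+ was 36.3% of the full difference for Lpcat1 and 13.4% for Mfsd2a. Neither step was called. Leaving out each mouse gave steps from -0.143 to -0.0862 for Lpcat1 and from 0.043 to 0.134 for Mfsd2a. With rod and muscle covariates the step was -0.153 of a full difference of -0.363 for Lpcat1. For Mfsd2a it was 0.528 of 1.09.

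Per kilobase of exon, the mean WT level was 45.4 CPM per kb for Adipor1, 39.7 for Agpat3, 16.0 for Lpcat1, 11.85 for Lpcat3, 9.14 for Mfsd2a, 6.10 for Lpcat2, 5.74 for Fabp5, 4.65 for Pla2g6, 4.45 for Lpcat4 and 2.57 for Fabp7. WT mice overlapped between Lpcat2 and Fabp5 and between Pla2g6 and Lpcat4, so those neighbours do not differ beyond their spread. In FUN025/FUN025 mice Mfsd2a, at 15.1 CPM per kb, stood above Lpcat1, with overlapping mice.

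The genes whose levels varied most like the called members from mouse to mouse, after the mean of each genotype was subtracted, were found among 17583 genes over the 15 mice. For Lpcat3 they were Bod1 (Pearson r = 0.928, Spearman rho = 0.911), Tomm22 and Crhr2 (both r = 0.892). For Mfsd2a they were Zfp429 (r = 0.895), Gm47171 (0.870) and Vasn (0.868), and for Lpcat1 they were Wdr78 (0.875), Pgm2l1 (0.862) and Gm15392 (0.836). Without the 2 mice farthest from the median of the member, r was 0.701 for Zfp429 and 0.650 for Gm47171, and 0.910 for Vasn. Among the members themselves, Lpcat3 and Mfsd2a had r = 0.523 on the same residual scale. Such values share libraries and depth and come from the highest of many genes.

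The genes around DHA metabolism were read from 6 lists that hold 106 genes, of which 92 were tested. The lists were other acyltransferases, other phospholipases, phospholipid synthesis, other fatty acid carriers and transporters, DHA synthesis and activation, and adiponectin receptor relatives. The last list also holds genes outside that receptor family, among them Mfrp. In FUN025/FUN025 against WT, 9 were called higher and 6 lower, in FUN025/+ against WT 9 and 5, and in FUN025/FUN025 against FUN025/+ 2 and 2. The called share of the 92 genes was 16.3% in FUN025/FUN025 and 15.2% in FUN025/+ against WT, near the 14.0% and 13.7% of all genes tested. It was 4.35% against 0.522% of all genes between the mutant genotypes. The lists were chosen with earlier results of these data known, so these shares are not a test of the pathway. The 15 genes called in FUN025/FUN025 against WT became 9 without WT replicate 2, 5 with the endothelial covariate and 3 with rod and muscle covariates. In the same fits the called share of all genes went from 14.0% to 11.1%, 3.87% and 3.01%. The 14 called in FUN025/+ became 9 without WT replicate 4 or with only the 2 genotypes fitted, where 7.63% and 10.3% of all genes were called, against 13.7% before. They became 8 with the rod covariate (11.8% of all genes) and 0 with rod and muscle covariates (1.14%). In the last, 15 of the 92 genes, or 16.3%, had an unadjusted p under 0.05 in edgeR's test, as did 14.8% of all genes. The median log2 fold change of the 92 genes was -0.03, -0.01 and -0.00454 in these comparisons.

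In the list of DHA synthesis and activation, 3 of 10 genes rose and 1 fell in FUN025/FUN025 against WT, with 4 called in all, where 7.03% of all genes tested were called higher and 7.00% lower. Fads1 and Fads2, the desaturases of the route from precursors to DHA, rose by 0.73 ± 0.0543 and 0.53 ± 0.0633 on the log2 scale (adjusted p = 6.48e-08 and 2.36e-05, edgeR). Fads1 was at 244.3, 245, 243.7 and 254.5 CPM in WT mice and at 389.5, 393.9, 419, 425 and 420.5 CPM in FUN025/FUN025 mice, with no overlap. Elovl2, an elongase that lengthens the precursors of DHA, went the other way: it was at 32.8, 29.9, 24.0 and 28.5 CPM in WT mice, 30.2 to 41.4 CPM in FUN025/+ mice, and 20.1, 20.0, 22.9, 21.6 and 25.8 CPM in FUN025/FUN025 mice. Elovl2 rose by 0.38 in FUN025/+ against WT (adjusted p = 0.0164) and fell by 0.39 in FUN025/FUN025 against WT (adjusted p = 0.0182), with the mean at 28.8, 37.4 and 22.1 CPM in the 3 genotypes. Its difference between FUN025/FUN025 and FUN025/+ was -0.76 ± 0.0946 (adjusted p = 0.000166), called in all 28 alternatives. The call of FUN025/+ against WT was made in 23 of them, not without WT replicate 3 or 4. It was also lost with the replicate block (adjusted p = 0.062, edgeR), the rod covariate (0.114) and the rod and muscle covariates (0.365). The call of FUN025/FUN025 against WT was made in 24, not without WT replicate 1 or 2. It was also lost with the endothelial covariate (0.201) and the rod and muscle covariates (0.351). Fads1 also rose by 0.16 in FUN025/+ against WT (adjusted p = 0.0423), called in 12 of 28 alternatives. Acsl4, which activates long polyunsaturated fatty acids, rose by 0.34 in FUN025/FUN025 against WT (adjusted p = 0.00064).

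**Figure D4:**
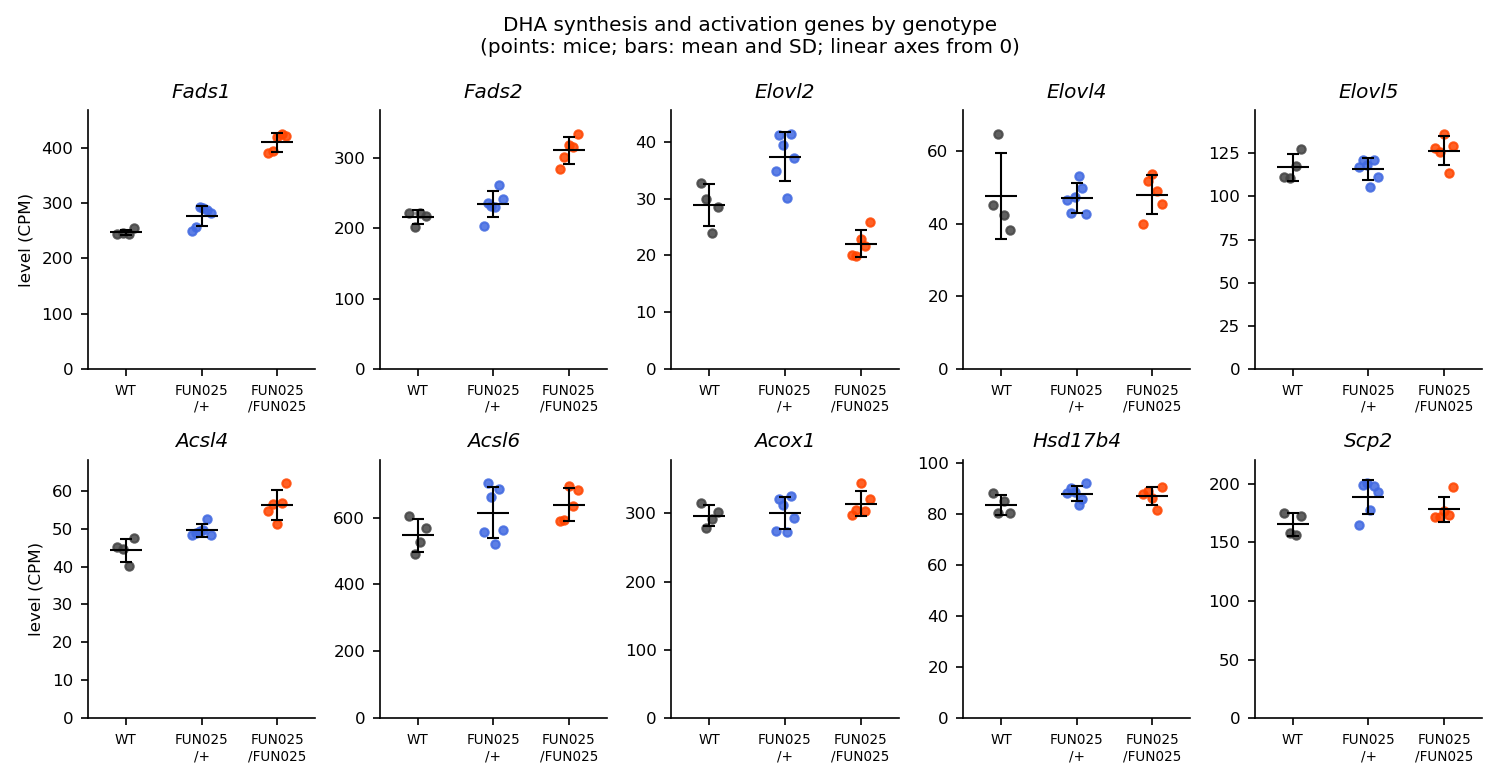
Level in CPM (linear axes from 0) of the 10 genes of DHA synthesis and activation in WT, FUN025/+ and FUN025/FUN025 mice, with 1 point per mouse and the mean and SD as bars. Fads1 and Fads2 are highest in FUN025/FUN025 mice, while Elovl2 is highest in FUN025/+ mice with a mean of 37.4 CPM and lowest in FUN025/FUN025 mice with 22.1 CPM.

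Among the other acyltransferases, Gpam, which adds the first fatty acid to glycerol phosphate, rose by 0.27 in FUN025/+ (adjusted p = 0.0115) and by 0.46 in FUN025/FUN025 eyecups (adjusted p = 0.000257), while Agpat4 fell by 0.42 in FUN025/+ (adjusted p = 0.00387) and by 0.37 in FUN025/FUN025 eyecups (adjusted p = 0.0108). The calls of Gpam in FUN025/+ and of Agpat4 in FUN025/FUN025 were each lost in 2 of 28 alternatives, and that of Agpat4 in FUN025/+ in 1. Tmem86b, which is held in the same list but encodes a lysoplasmalogenase, a hydrolase, fell by 0.47 in FUN025/+ eyecups (adjusted p = 0.0455). It was called in only 13 of 28 alternatives. Its log2 fold change there ran from -0.646 with the endothelial covariate to -0.0312 with rod and muscle covariates. Among the phospholipases, Plbd1 fell by 0.40 in FUN025/FUN025 eyecups (adjusted p = 0.0487), and was called in 11 of 28 alternatives. Over these, its log2 fold change ran from -0.712 with rod and muscle covariates to -0.0692 with the endothelial covariate. Fabp4, a binding protein of fat cells, fell by 0.97 in FUN025/+ eyecups (adjusted p = 0.0165) from a mean of 16.7 CPM with an SD of 7.30 CPM in WT. The WT mice were at 13.7, 12.5, 12.8 and 27.6 CPM, and without WT replicate 4, the highest, its fall was 0.62 and still passed the threshold. The call was lost in 3 of 28 alternatives. These were only the 2 genotypes compared (adjusted p = 0.0502, edgeR), rod and muscle covariates (0.231) and the endothelial covariate (0.0923). With the last, chosen after seeing the data, the log2 fold change was -0.826. The 6 adipocyte markers, of which 1 was at 0 in some library, summed to 76.76 to 100.5 CPM in WT and 56.18 to 72.92 CPM in FUN025/+ eyecups. Most of this sum was Plin4, at 70.26 of 76.76 CPM in WT replicate 1 and 51.25 of 56.18 CPM in FUN025/+ replicate 3. The part of fat cell RNA in the fall of Fabp4 was not tested. Lpin1, a phosphatidate phosphatase, fell by 0.42 in FUN025/+ eyecups (adjusted p = 0.00337), where 3 of 10 striated muscle markers also fell, with sums of 3950 to 7366 CPM in WT and 2104 to 5577 CPM in FUN025/+. With rod and muscle markers as covariates its fall was 0.13 (adjusted p = 0.744). In FUN025/FUN025 eyecups, with muscle marker sums of 3291 to 4134 CPM, Lpin1 fell by 0.34 (adjusted p = 0.0157). That call was lost in 3 of 28 alternatives, namely without WT replicate 1 (adjusted p = 0.0521), with the endothelial covariate (0.0537) and with rod and muscle covariates (0.791). Mfrp, a membrane receptor of the RPE, rose by 0.30 in FUN025/+ eyecups (adjusted p = 0.0161), and Paqr9 fell by 0.37 in FUN025/FUN025 against FUN025/+ eyecups (adjusted p = 0.0171). Each of these 2 calls was lost in 3 of 28 alternatives, among them the fits without WT replicate 4 for Mfrp and without FUN025/FUN025 replicate 1 or 4 for Paqr9. In FUN025/FUN025 against WT, Mfrp rose by 0.26 (adjusted p = 0.0373) and Paqr9 fell by 0.25 (adjusted p = 0.0365), called in 17 and 18 of 28 alternatives.

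**Figure D5:**
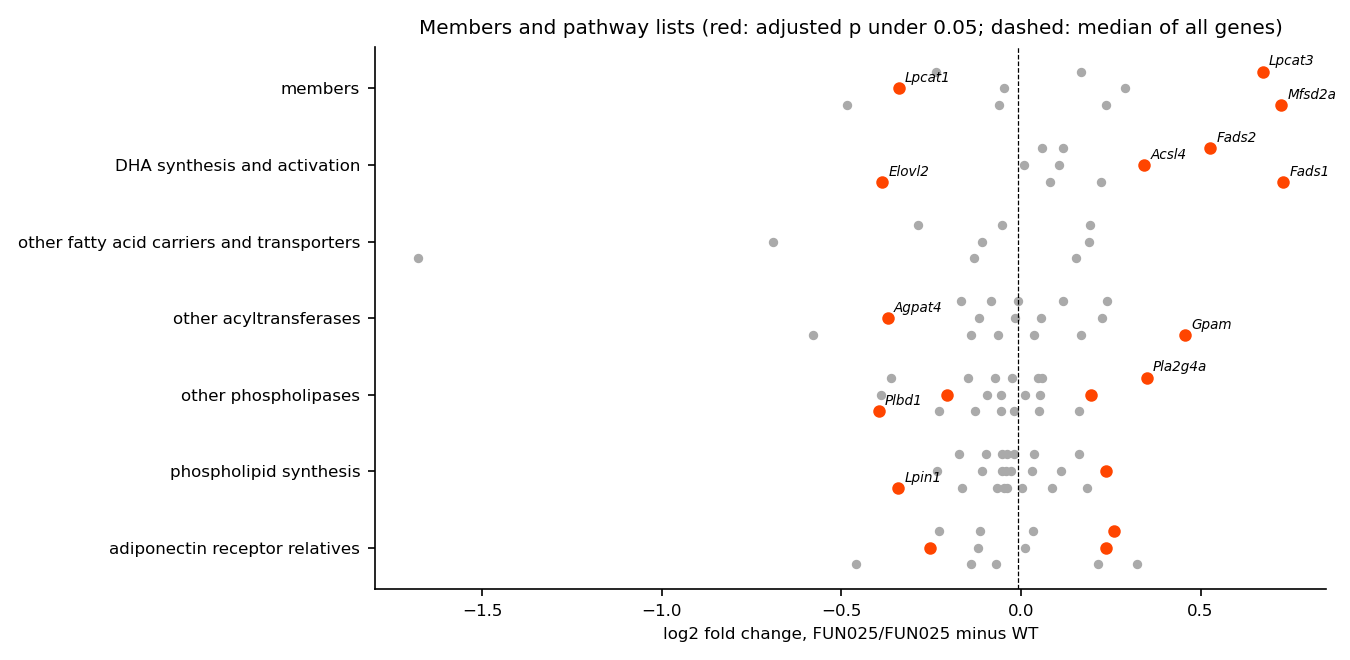
Log2 fold change between FUN025/FUN025 and WT eyecups (horizontal axis) of the 10 genes and of the 92 tested genes of the 6 lists, with red points for adjusted p under 0.05 and a dashed line at the median of all genes. The 3 rightmost red points are Fads1 (0.73), Mfsd2a (0.72) and Lpcat3 (0.67), and the red points on the left include Plbd1, Elovl2, Agpat4 and Lpcat1.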

How the data were processed

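The authors deposited whole-number read counts per Ensembl gene, without normalization, for each mouse. The submitters' processing notes name FastQC 0.11.8, Trimmomatic 0.39, HISAT2 2.1.0, SAMtools, featureCounts 2.0.0 and build GRCm38. The strand setting and annotation release are not given in the sources used here. Libraries were poly(A) selected and do not mark strand. Groups came from the sample labels. Replicates are separate mice.

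Symbols, exons and overlaps came from GENCODE M21. The least variable 15% of genes were dropped, after the study's methods, then genes with low counts by filterByExpr, leaving 18979. Counts were scaled by TMM and fitted for all 15 mice by edgeR 4.0.16 (R 4.3.3) with the quasi-likelihood test and Benjamini-Hochberg adjustment at 0.05. The trend used limma 3.58.1 on log2 CPM (prior count 2). The fits were tested on simulated data. No 2 libraries were identical. The members and lists were chosen with earlier results of these data known. Named genes are the members, Tmem135 and the 3 genes most correlated with each called member. Also named are the 3 largest called rises and falls of the lists per comparison, with a mean of at least 1 CPM. Acsl4, Emg1, Cd68, Trem2, Glul, Rgr, Ttr and Plin4 were named after their values were seen. Alternatives were other scalings, DESeq2 1.42.0, limma-voom, other filters, only the genotypes compared, and covariates (cell type markers or Xist). The replicate block and leaving out each mouse were further alternatives. The labels do not say that replicate numbers pair mice, and correlations of same-numbered deviations ran from -0.385 to 0.133. Differently numbered mice were not compared, so these values cannot decide whether a number marks a shared factor.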

Additional observations from a re-analysis of the deposited data

Results flagged for a closer look

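In groups of 4 to 10 mice, a value was picked out when its gap to the nearest other mouse, divided by the range of the group, passed Dixon's 95% critical value. Of 30 groups, 2 held such a mouse, and chance picks about 1 in 20 groups. Mfsd2a was at 17.9 CPM in WT replicate 2, where the other WT mice were at 21.27 to 21.82 CPM. Fabp5 was at 27.0 CPM in WT replicate 4, where the other WT mice were at 17.77 to 18.85 CPM.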

How the results depend on the processing

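Over 28 alternative settings, Lpcat3 stayed called in both comparisons that call it. Between FUN025/FUN025 and FUN025/+ eyecups, 1 member (Lpcat3) in place of 2 was called with limma-voom, without the low-count filter, with only the 2 genotypes compared and with the endothelial marker covariate, which was chosen after seeing the data. Leaving out each mouse gave 1 to 2, with 1 without FUN025/+ replicate 1 or 3 or FUN025/FUN025 replicate 5. Without FUN025/FUN025 replicate 2 the count was 2, but with Lpcat1 (adjusted p = 0.0215) in place of Mfsd2a (0.0792). The count was 3, with Lpcat1 added, with DESeq2 (Lpcat1 0.00934), the rod covariate (0.0245) and the rod and muscle covariates (0.0458). With the endothelial covariate 1 member in place of 3 was called in FUN025/FUN025 against WT, where 3.87% of all genes were called in place of 14.0%. The replicate block uses a shared number that the labels do not give as a pairing. With it, 2 members were called between FUN025/FUN025 and FUN025/+, Lpcat1 (adjusted p = 0.0434) and Lpcat3, and Mfsd2a was not (0.0858). The causes were not tested.

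No member that was called changed sign. Lpcat4 became -0.10 in FUN025/+ against WT with the replicate block, -0.48 there and -0.40 in FUN025/FUN025 against WT with rod and muscle covariates, and -0.13 against WT and -0.14 against FUN025/+ with the endothelial covariate. With the last, Agpat3 became 0.0113 against WT, Adipor1 0.00608 in FUN025/+ and Pla2g6 0.03 against FUN025/+. Leaving out mice gave -0.10 to 0.00871 for Agpat3 in FUN025/FUN025 against WT, -0.12 to 0.12 for Fabp5 and -0.0266 to 0.0125 for Adipor1 in FUN025/+ against WT, and -0.00121 to 0.0927 for Lpcat2, -0.11 to 0.24 for Lpcat4 and -0.188 to 0.0583 for Fabp7 in FUN025/FUN025 against FUN025/+.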

Other observations

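The following genes were chosen after their values were seen. Lpcat4 varied between mice most like Gm48840, Muc20 and Ikzf2 (r = 0.975 for each over 15 mice, after subtracting genotype means), and Lpcat2 most like Nckap1l (r = 0.912), Tmem59 (0.904) and Pla2g7 (0.893). In the phospholipase list, Pla2g4a rose by 0.35 in FUN025/FUN025 against WT (adjusted p = 0.0196, edgeR).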
